A study of Mus musculus with 67 samples.

Results

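The genes described here encode the proteins of the cytosolic ribosome in mouse monocytes and their marrow progenitors. Members were taken by symbol: names starting with Rpl or Rps and a digit, together with Rpsa, Rplp0, Rplp1 and Rplp2, without the Rps6k kinases, the -ps pseudogene symbols and Rpl26. A symbol also had to reach a mean of 10 reads per 1000000 (RPM) in at least 1 group. This left 85 of the 24421 listed genes, 50 with Rpl symbols for the large (60S) subunit and 35 with Rps symbols for the small (40S) subunit. Rpl10l, Rpl28 and Rpl39l stayed under the minimum, with Rpl28 closest at a highest group mean of 9.80 RPM, while Rps23 was just inside it at 13.5 RPM. Rps19bp1 met the symbol rule although its product is a binding protein and not part of the ribosome. Rpl3l, Rpl7l1, Rpl22l1, Rpl32l, Rpl36al, Rpl37rt, Rps4l, Rps27l and Rps27rt are symbols of paralogues or further copies.

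The study sequenced polyadenylated RNA, caught on oligo-dT beads, from 67 libraries in 28 groups, and the values lie in 3 tables that were never combined in a fit. The 7-week table holds C57BL/6 marrow MDP (4 libraries), cMoP (4), Ly6C+ monocytes (3) and Ly6C- monocytes (4), and blood Ly6C+ (4), Ly6Cint (3) and Ly6C- monocytes (3). MDP and cMoP are the usual short names of the monocyte and dendritic cell progenitor and of the common monocyte progenitor. The second table holds 2 libraries each of 8-week C57BL/6 marrow MDP, cMoP and Ly6C+ monocytes, and of 16-week blood monocytes from mice of mixed background labelled wt (Ly6C+, Ly6Cint, Ly6C-) or ko (Ly6C+, Ly6Cint). The labels do not spell out the deleted gene or how it was deleted, and the series title names C/EBPb. The transfer table holds 8-week C57BL/6 cells with 2 libraries a group: marrow Ly6C+ monocytes before transfer, transferred cells from blood and spleen at 24, 36 and 48 h, and host Ly6C+, Ly6Cint and Ly6C- cells of both organs at 24 h. All cells were sorted by flow cytometry. Marrow and blood cells of 43 libraries were first enriched on CD115, the receptor for colony-stimulating factor 1, whereas transfer blood was sorted after a ficoll gradient and spleen after lysis of red cells. No label says which libraries come from separate animals, and graft blood libraries labelled AC may be pools, so p-values measure the spread between these libraries only.

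A ribosome needs 1 copy of nearly every ribosomal protein, and cells that grow and divide make large amounts of them. The mRNAs of most of these proteins, and of several translation factors, start with a C followed by a run of pyrimidines, the 5′ terminal oligopyrimidine (TOP) tract. Through this tract, mTOR and the RNA-binding protein LARP1 govern how fast the mRNA is translated and how stable it is, while MYC promotes transcription of ribosomal protein and ribosome assembly genes. The transcript level alone, as measured here, does not give the rate of translation.

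Among the members, 64 matched the RefSeq promoter table of build GRCm38.p6. A C at the annotated start followed by at least 4 pyrimidines stood in 14 of them (21.9%) against 813 of 27025 genes (3.01%), and within 3 bases of the start in 26 (40.6%) against 3651 (13.5%). The following windows run from 10 bases before to 20 bases from the start, with the tract in capitals, and are shown because the results turn on these genes. Rps6 and Rps9 stand for members that were lower in later stages, Rps27 for a member that was higher in Ly6Cint cells, Rpl27a for a long tract, and Rpl22l1 and Rps27l for paralogues. Rps2 and the 2 annotated starts of Rpl3l come last and have no tract at these positions.
Rps6, chr4:86857348-86857377, minus strand: gaagtcgggcCTCTTTTTCgtgacgcctcc
Rps27, chr3:90213629-90213658, minus strand: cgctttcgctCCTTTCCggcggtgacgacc
Rps9, chr7:3704031-3704060, plus strand: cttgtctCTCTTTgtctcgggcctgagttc
Rpl27a, chr7:109519185-109519214, plus strand: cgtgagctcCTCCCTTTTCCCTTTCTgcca
Rpl22l1, chr3:28805498-28805527, plus strand: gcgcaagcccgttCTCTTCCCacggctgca
Rps27l, chr9:66946076-66946105, plus strand: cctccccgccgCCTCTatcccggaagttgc
Rps2, chr17:24720053-24720082, plus strand: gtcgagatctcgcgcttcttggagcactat
Rpl3l, chr17:24727816-24727845, plus strand: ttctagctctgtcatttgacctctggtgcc
Rpl3l, chr17:24732675-24732704, plus strand: caacagctacagtgccccaaatgtcctgaa
Within the 250 bases upstream, searched on both strands, the MYC-type E-box CACGTG stood in 5 members (7.81%) and in 6.86% of all genes, and the C/EBP-type TTGCNNAA in 5 members (7.81%) and 10.8% of all genes. These letters say only what is in the windows.

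Recovered depth was 577690 to 3643327 reads a library in the 7-week table and 942751 to 5478761 in the second, and about 503000 to 1185000 in 24 of 26 transfer libraries. Replicates of a group correlated across genes with Pearson's r of 0.907 to 0.987, 0.940 to 0.983 and 0.803 to 0.979 in the 3 tables. Much of the members' sequence is repeated elsewhere: of 83 members with a GENCODE M21 transcript, the median had 49.3% of its 50-base stretches in common with another gene's transcript, and 41 had over 50%. How the authors treated reads with several places to align is not given in the sources used here. Members were therefore compared between groups within a table, and the 14 members with under 20% shared sequence are also given apart for most comparisons.

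Transcripts of the members took a smaller share of all listed reads in each later marrow stage at 7 weeks. The summed level was 9.11%, 9.08%, 8.97% and 9.27% in MDP and 7.36%, 8.13%, 7.95% and 7.64% in cMoP. It was 5.62%, 5.25% and 5.33% in marrow Ly6C+ monocytes. These 3 groups did not overlap, and no test was made on the sum. Marrow Ly6C- monocytes lay at 5.07%, 5.29%, 5.65% and 4.91%, overlapping marrow Ly6C+ cells. In percent of the library total that the RPM refer to, which also holds reads outside listed genes, they lay at 3.16% to 3.403%, below the 3.71% to 3.93% of marrow Ly6C+ cells. In blood, Ly6C+ cells lay at 5.51% to 5.87% in 3 libraries and at 7.57% in replicate 4, Ly6Cint cells at 6.31% to 6.84%, and Ly6C- cells at 4.17% to 5.22%. In 7-week blood the Ly6C- libraries were thus below all others, and the Ly6Cint libraries lay inside the range of the Ly6C+ libraries. In percent of the library total Ly6Cint cells lay at 3.78% to 4.12% and Ly6C+ cells at 3.79% to 5.06%, and the order of the 2 means turned (3.93% and 4.21%, against 6.54% and 6.12% of listed reads).

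In the second table the sum was 8.06% and 8.81% in 8-week MDP, 9.28% and 7.12% in cMoP, and 4.25% and 4.63% in marrow Ly6C+ cells. In 16-week wt blood it was 5.05% and 5.16% in Ly6C+, 4.69% and 4.84% in Ly6Cint, and 3.32% and 3.42% in Ly6C- cells. The order of wt blood was therefore Ly6C+, Ly6Cint, Ly6C-, without overlap. Without the 5 most abundant members, wt Ly6C+ (3.10% to 3.16%) and Ly6Cint libraries (2.89% to 3.17%) overlapped. The wt Ly6C- libraries (2.15% to 2.16%) stayed below both. In the transfer table the host blood values were 3.86% and 3.90% in Ly6C+, 3.31% in both Ly6Cint libraries, and 2.66% and 2.84% in Ly6C- cells. Host spleen values were 4.43% and 4.005%, 4.35% and 3.92%, and 3.24% and 3.66% in the same order, with Ly6C- cells lowest again. Rplp1, Rpl4, Rps3, Rpl8 and Rpl32 led the sum in the 7-week table, and Rpl4 and Rps3 were among the leading 5 members of each table.

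**Figure D1:**
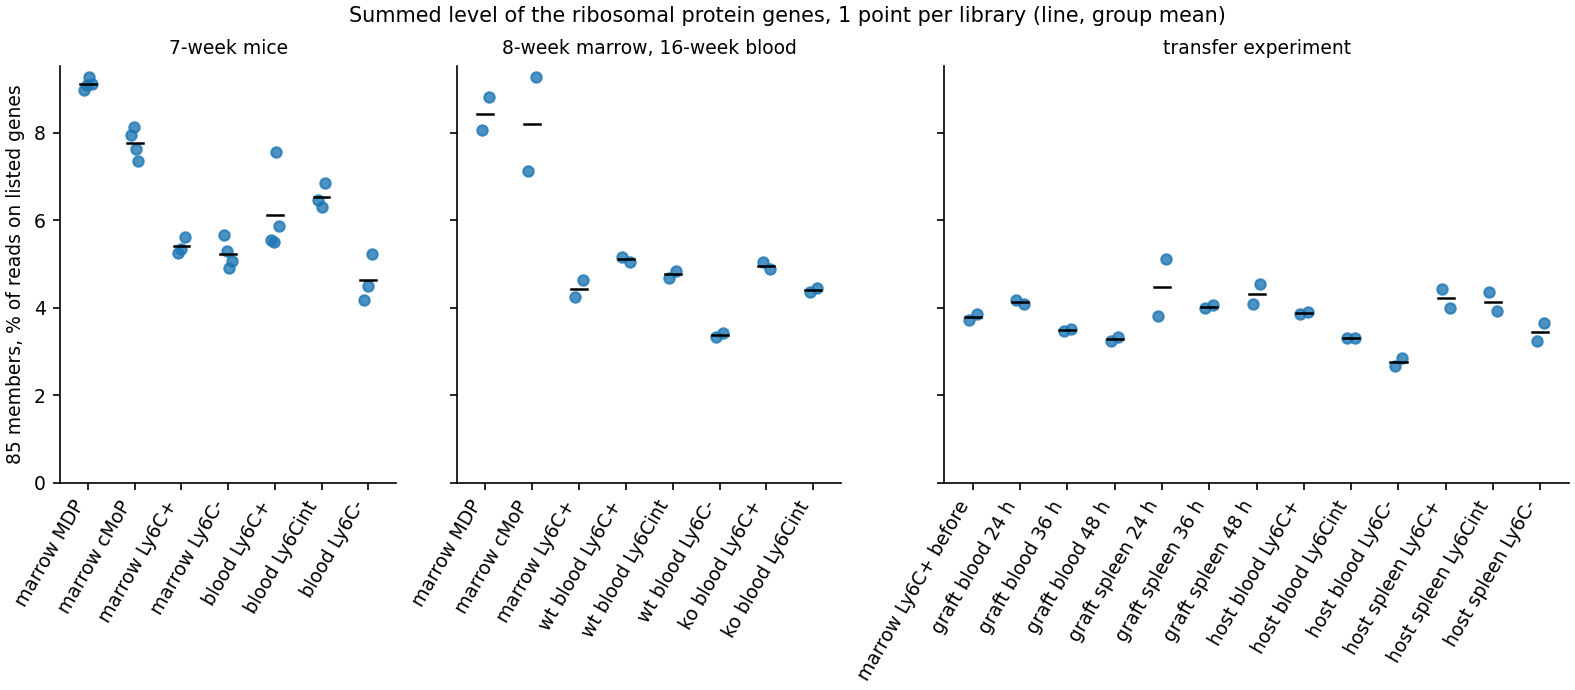
Summed level of the ribosomal protein genes in percent of the reads of all listed genes, 1 point per library with the group mean as a line, for the 3 tables. MDP and cMoP libraries lie between 7.12% and 9.28%, above all monocyte libraries except replicate 4 of 7-week blood Ly6C+ at 7.57%.

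The fall between cMoP and marrow Ly6C+ monocytes was carried by most members and by both subunits. At 7 weeks 53 of 85 members fell (38 Rpl, 15 Rps) and none rose, while 22.4% of all 11373 genes tested fell and 15.3% rose. A gene is said to rise or fall where limma's test on log2(RPM + 1) gave a Benjamini-Hochberg adjusted p under 0.05 over all genes tested, and differences are log2 differences on that scale with their standard errors. The members' median difference was -0.62 beside -0.17 over all genes, and 82 of 85 members were lower. In the separate 8-week mice 46 of 85 members fell and none rose, beside 20.5% and 16.3% of all 11388 genes, with a median of -0.79 beside -0.10. With TMM scaling, which moved the all-gene median to -0.03, 26 members were called at 7 weeks with a median of -0.46, and with edgeR on the recovered reads 29. The 8-week count was 23 without cMoP replicate 1 and 27 without Ly6C+ replicate 1. Of the members that fell, 35 were the same in both ages, which is 66.0% of the 7-week list and 76.1% of the 8-week list. The 14 members with little shared sequence included 8 that fell at 7 weeks (median -0.62) and 11 that fell at 8 weeks (median -0.92).

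Rps6, the small-subunit protein phosphorylated by S6 kinases, stood at 127, 144, 133 and 147 RPM in cMoP and at 56.4, 70.5 and 65.2 RPM in marrow Ly6C+ cells at 7 weeks. The groups did not overlap, and the difference was -1.10 ± 0.14 (limma adjusted p = 4.7e-07). At 8 weeks Rps6 was 55.6 and 59.95 RPM in cMoP and 25.8 and 15.8 RPM in Ly6C+ cells, a difference of -1.47 ± 0.41 (limma adjusted p = 0.011). Rpl12, a protein of the stalk base where elongation factors bind, showed the largest 7-week fall, from 14.7 to 20.9 RPM in cMoP to 3.86 to 7.25 RPM (-1.44 ± 0.31, limma adjusted p = 0.00056). Rpl27, Rps25, Rps2, Rpl31, Rpl36a and Rps12 followed with differences between -1.30 and -0.94. The largest 8-week fall was that of Rps27a, which encodes a ubiquitin fusion, from 14.0 and 11.9 RPM to 0 and 1.67 RPM (-3.09 ± 0.80, limma adjusted p = 0.0075). Rpl30 (-2.10), Rps15a (-1.84), Rps4x (-1.69), Rps2 (-1.65) and Rpl22 (-1.61) came next. With 1 library left out, Rps15a ranged from -2.45 to -1.22, Rps4x from -2.16 to -1.21 and Rps2 from -2.15 to -1.16. The calls of these 3 genes did not hold in every such fit. The 8-week values of Rps27a are a few reads each, and its call held in 3 of 4 fits that left out 1 library (adjusted p up to 0.081). Rplp0, the stalk protein that carries the P1 and P2 dimers, fell less, by 0.43 at 7 weeks and by 0.58 at 8 weeks.

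Other parts of the protein synthesis machinery fell in the same step, in which 22.4% of all genes fell at 7 weeks and 20.5% at 8 weeks. Of 57 ribosome assembly genes 45 fell at 7 weeks and 45 at 8 weeks, with medians of -1.50 and -1.62. They included Ncl (nucleolin, -1.77 ± 0.13), Nolc1 (-2.35 ± 0.21) and Ppan (-2.62 ± 0.24) at 7 weeks. Of 21 other TOP mRNAs 14 fell at 7 weeks and 10 at 8 weeks, led by the elongation factor genes Eef1g (-1.99 ± 0.20 at 7 weeks) and Eef1b2 (-1.11 ± 0.12). Of 28 initiation factor genes 17 and 14 fell, and Eif4g3 rose at 7 weeks. Of the mitochondrial ribosome 48 of 77 genes fell at 7 weeks, where Mrpl52 rose, and 40 of 76 at 8 weeks. Myc fell by 3.54 (± 0.45) and by 4.55 (± 0.35) at the 2 ages, from 113 to 212 RPM in cMoP to 5.40 to 19.6 RPM in 7-week marrow Ly6C+ cells. The ribosomal protein genes thus had a smaller median fall than the assembly genes at both ages.

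Marker sums were read beside this step. The 8 dividing-cell markers summed to 1774 to 1871 RPM in 7-week cMoP and 1583 to 1873 RPM in Ly6C+ cells, so these ranges overlapped. At 8 weeks they summed to 1287 to 1326 and 1444 to 1511 RPM. The 7 neutrophil markers summed to 3067 to 3781 RPM in 8-week cMoP and 306 to 328 RPM in Ly6C+ cells. The 5 erythroid markers summed to 271 to 516 RPM in 8-week cMoP and 3399 to 4602 RPM in Ly6C+ cells. At 7 weeks the neutrophil markers summed to 20.9 to 48.1 RPM in cMoP and 214.6 to 319.6 RPM in Ly6C+ cells, and the erythroid markers to 9.66 to 44.8 and 3.09 to 180.5 RPM. The 7 T and NK cell markers found summed to 183 to 271 RPM in 7-week cMoP and 9.42 to 14.7 RPM in Ly6C+ cells, and to 78.1 to 105 and 3.33 to 7.98 RPM at 8 weeks. The 5 B-cell markers found summed to 65.5 to 73.3 and 20.8 to 35.9 RPM at 7 weeks. Malat1 and Neat1, RNAs kept in the nucleus, summed to 104.6 to 155 and 297 to 347 RPM. The part of these markers in the results at both ages was not tested. In bulk samples, fewer cells of a type and less RNA per cell cannot be told apart.

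Few single members separated MDP from cMoP. At 7 weeks the members' median difference was -0.23 (all genes -0.01), and limma called 1 of 85 members. All genes rose in 5.2% and fell in 4.05% of tests. When only these 2 groups were fitted, 12 members were called. The share of all genes called in that fit is not given here, so this count is not read as a result about the members. At 8 weeks limma called 0 of 85 members, 6 had an unadjusted p under 0.05 and edgeR called 0, beside 1.83% and 3.02% of all genes that rose and fell.

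**Figure D2:**
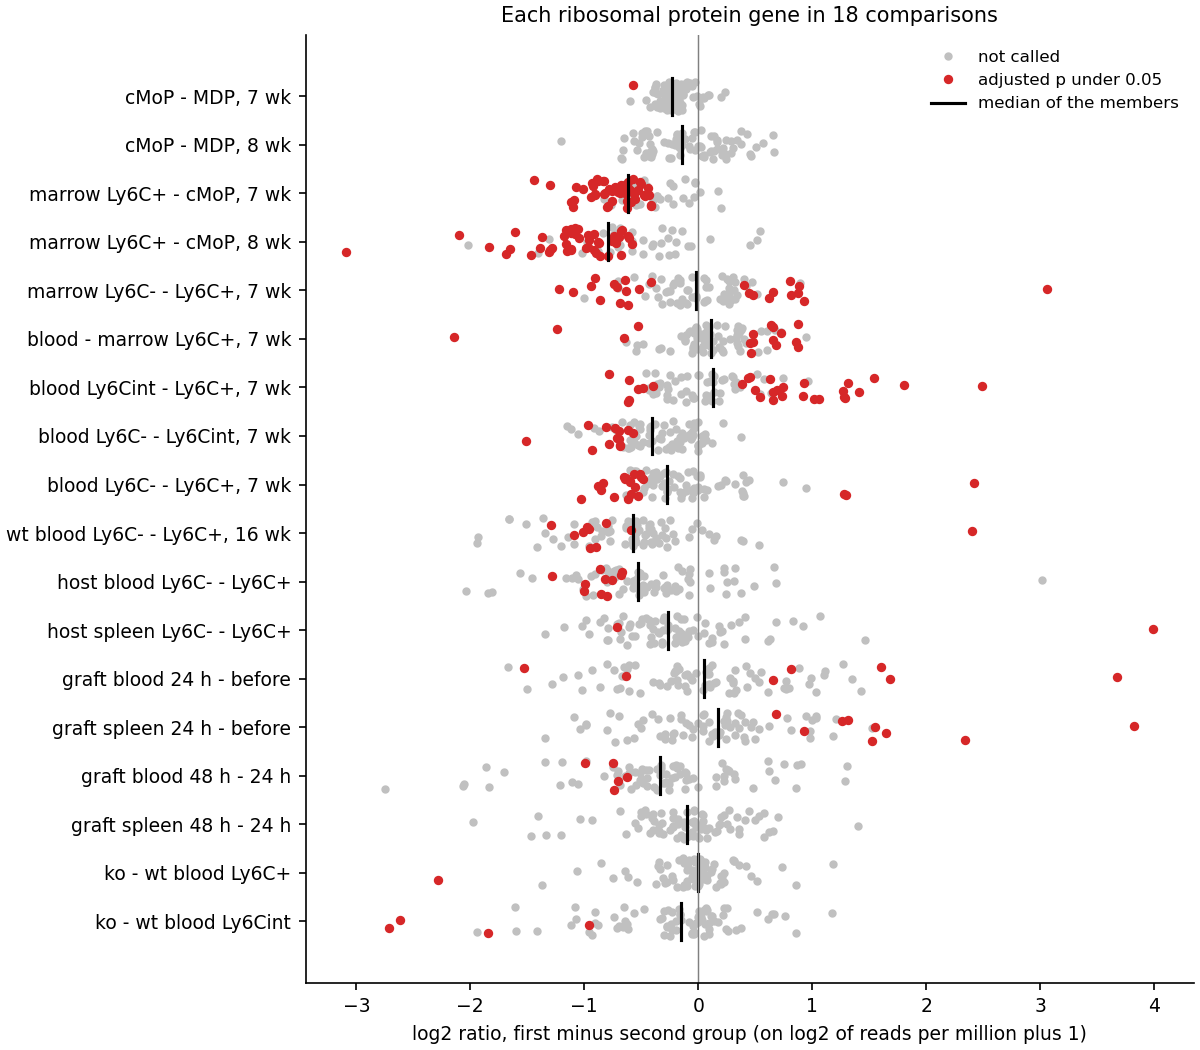
Log2 difference of each ribosomal protein gene (1 point) in 18 comparisons, as first minus second group on log2(RPM + 1), with called members in red and the members' median as a bar. The 2 comparisons of marrow Ly6C+ cells with cMoP have medians of -0.62 and -0.79, and the point far to the right in the Ly6C- and graft comparisons is Rpl3l.

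Blood and marrow Ly6C+ monocytes at 7 weeks differed in members of both directions. In blood 12 members rose and 4 fell, beside 7.32% and 18.7% of all genes, and the members' median was 0.11 beside -0.19. Of the 14 members with little shared sequence 0 rose and 2 fell, with a median of 0.04. With TMM scaling the median of all members was 0.28 and the counts were 20 and 2, and with edgeR on the recovered reads 25 and 2. The share of all genes called in these 2 fits is not given, so their counts are not read as a result. Rps21, Rpl10 and Rps12 had the largest rises (0.88, 0.88 and 0.86). Rpl39, a very small protein at the exit tunnel, lay at 347, 255 and 244 RPM in marrow and at 233, 138, 15.8 and 27.9 RPM in blood. Its fall was 2.15 ± 0.53 (limma adjusted p = 0.003), although 2 of the 4 blood libraries lay far below the other 2. Rpl22l1, the paralogue of Rpl22, fell by 1.24 ± 0.42 with overlapping groups, and Rpl4 fell by 0.65. Without blood replicate 4 the counts were 6 and 3, and without marrow replicate 4 they were 5 and 3. The dividing-cell markers summed to 1583 to 1873 RPM in marrow and 33.5 to 209 RPM in blood Ly6C+ cells, and the neutrophil markers to 214.6 to 319.6 and 3.87 to 46.04 RPM. Their part in the result was not tested.

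Between blood Ly6C+ and Ly6Cint monocytes at 7 weeks more members rose than fell, and nearly all falls depended on the scaling. Of 85 members 23 rose and 7 fell, beside 7.95% and 19.2% of all genes, and the median was 0.13 beside -0.21. Among the 14 members with little shared sequence 4 rose and 2 fell, and their median was -0.19, near that of all genes. Over all members TMM scaling gave 30 and 1, edgeR 22 and 1, and leaving out blood Ly6C+ replicate 3 gave 11 and 4. Shares of all genes called in these fits are not given, so the counts show only how the calls depend on the settings. After Rpl3l, described below, the largest rises were in Rpl39 (1.80), Rpl22l1 (1.54), Rps15a (1.41), Rpl36 (1.32), Rps27rt (1.29) and Rps27 (1.28). Rps27 stood at 51.1, 38.4, 38.7 and 36.1 RPM in Ly6C+ and at 113, 91.0 and 98.8 RPM in Ly6Cint libraries, without overlap (± 0.25, limma adjusted p = 0.00046). The copy Rps27rt had nearly the same value in each library (38.4, 38.7 and 36.1 RPM in 3 of them), so their reads cannot be told apart. On the other side, Rpl13 (-0.78), Rpsa (-0.61), Rpl29 (-0.61) and Rplp0 (-0.53) fell, as did Rpl7l1 and Rpl41. Rpsa encodes a small-subunit protein also known as the laminin receptor. The falls of these 6 members were not called under TMM scaling. Set against the median member of each library, 7 members stood higher and 24 lower in Ly6Cint cells, beside 2.81% and 38.9% of all genes.

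From Ly6Cint to Ly6C- blood monocytes at 7 weeks, 13 members fell and none rose, beside 1.62% and 7.25% of all genes. The median was -0.40 while all genes had 0.20, and it was -0.22 in the 14 members with little shared sequence. Rps9, a small-subunit protein needed for accurate decoding, lay at 2368, 2075 and 2342 RPM in Ly6Cint and at 1468, 1160 and 981 RPM in Ly6C- cells (-0.93 ± 0.15, limma adjusted p = 0.00041). Rps15a had the largest fall (-1.51 ± 0.41), with overlapping groups because 1 Ly6C- library reached 138 RPM. This count rested on single libraries. It was 27 without Ly6C- replicate 1, of which 26 fell, and 3 or 4 without Ly6C- replicate 3, Ly6C- replicate 2 or Ly6Cint replicate 1.

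Ly6C- and Ly6C+ blood monocytes were compared in 3 separate experiments, and the median member was lower in each. Members that rose and fell numbered 3 and 18 at 7 weeks (all genes 9.86% and 10.5%), 1 and 9 in 16-week wt mice (4.84% and 5.68%), and 0 and 10 in transfer hosts (1.69% and 1.98%). The members' medians were -0.27, -0.57 and -0.53, beside 0.00, 0.03 and 0.00 over all genes. In the 14 members with little shared sequence the medians were -0.31, -0.36 and -0.50. The 2 wt Ly6C- libraries at 16 weeks differed widely in some members, such as Rps27a at 6.33 and 48.8 RPM, and that median rests on them. The 7-week and 16-week lists had 8 members that fell in common (44.4% and 88.9% of them), as had the 7-week and host lists (8 members, 44.4% and 80.0%). Rpl22, Rpl32, Rplp0 and Rps9 fell in all 3, and are named because the count is small. The calls of Rpl22 and Rps9 at 16 weeks and in hosts needed all libraries of the compared groups. When only the 2 groups were fitted, Rplp0 was called at 7 and 16 weeks (limma adjusted p = 0.044 and 0.045). Rps9 was then called at 7 weeks only (limma adjusted p = 0.029). Rpl22 and Rpl32 were called in no such fit, and no member was called in hosts.

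Rplp0 lay at 1427, 1807, 1892 and 1637 RPM in 7-week Ly6C+ and at 760, 962 and 1048 RPM in Ly6C- blood cells (-0.88 ± 0.15, limma adjusted p = 8.1e-05). In 16-week wt blood it was 1700 and 1446 against 761 and 712 RPM (-1.09 ± 0.17, limma adjusted p = 0.00055). In transfer hosts it was 1614 and 1918 against 930 and 837 RPM (-1.0 ± 0.21, limma adjusted p = 0.0064). The groups did not overlap in any of the 3 experiments. Rps9 fell by 1.03, 0.89 and 0.80 in the same order. Other large falls were Rps18 (-0.85) and Rpl41 (-0.83) at 7 weeks, Rpl27a (-1.29) and Rpl41 (-1.01) at 16 weeks, and Rpl32l (-1.28) and Rps26 (-1.0) in hosts. In host spleen, Rpl3l rose and Rpl37rt fell (-0.71), beside 1.59% and 1.18% of all genes, with a members' median of -0.27. In 16-week wt blood the count of called members was 3 without Ly6C+ replicate 2 or Ly6C- replicate 1 and 6 without Ly6C+ replicate 1. In host blood it was 1 without Ly6C+ library A, 2 without Ly6C+ or Ly6C- library B and 4 without Ly6C- library A.

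In marrow, 11 members rose and 13 fell in Ly6C- against Ly6C+ cells, beside 11.0% and 29.1% of all genes, and the median was -0.02 beside -0.28. Of the 14 members with little shared sequence 1 rose and 5 fell, with a median of -0.30. TMM scaling moved the all-gene median to -0.02 and the members' median to 0.27 and gave 22 and 5 calls, edgeR gave 26 and 5, and leaving out marrow Ly6C+ replicate 4 gave 5 and 9. All-gene shares of these fits are not given, so the counts show only how the calls depend on the settings. Rpl4, among the most abundant members, lay at 2706, 2706 and 2787 RPM in Ly6C+ and at 1413, 1257, 1267 and 829 RPM in Ly6C- cells (-1.22 ± 0.18, limma adjusted p = 2.8e-06). Rplp0 fell by 1.10, Rpl36a by 0.94, Rpl14 by 0.90 and Rps27l by 0.86. Rps14 lay at 1246, 1076 and 1010 RPM in Ly6C+ and at 1819, 1980, 2191 and 1834 RPM in Ly6C- cells (0.82 ± 0.18, limma adjusted p = 0.00061). Rps29 (0.93), Rpl36 (0.89) and Rps10 (0.87) also rose. Set against the median member, 4 members stood higher and 23 lower, beside 5.91% and 37.1% of all genes. Fau, which encodes a ubiquitin-like protein fused to the small-subunit protein eS30 and is not among the members, rose by 1.0 ± 0.26. Gnb2l1 (Rack1), also outside the members, fell by 0.43 ± 0.14.

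The related gene lists did not all follow the ribosomal proteins in the Ly6C- step. In marrow, 24 of 57 assembly genes, 11 of 21 other TOP mRNAs, 16 of 28 initiation factor genes and 48 of 77 mitochondrial ribosome genes fell. Of all genes 29.1% fell there. In 7-week blood 6 of 57 assembly genes rose, near the 9.86% of all genes that rose, with Nop58 (1.34 ± 0.28) and Nop14 (0.87 ± 0.20) among them. Only Nhp2 of this list is named here as lower, while 10.5% of all genes fell. Of the other TOP mRNAs 5 fell there, namely Eef2 (-0.72 ± 0.16), Eif3h, Naca, Eif3f and Eif3k, and Nap1l1 rose. Ddit4, an inhibitor of mTOR signalling, rose by 2.19 ± 0.33 in 7-week blood, 2.69 ± 0.33 in marrow and 2.58 ± 0.36 in 16-week wt blood. The dividing-cell markers summed to 1583 to 1873 RPM in marrow Ly6C+ and 96.8 to 174 RPM in marrow Ly6C- cells, and to 33.5 to 209 and 128 to 163 RPM in the same blood cells. In blood those ranges overlapped. The 5 erythroid markers summed to 3.09 to 180.5 RPM in marrow Ly6C+ and 717 to 1849.6 RPM in marrow Ly6C- cells. Malat1 and Neat1 summed to 297 to 347 RPM in marrow Ly6C+ and 783 to 1097 RPM in marrow Ly6C- cells, and to 334 to 528 and 874 to 1060.4 RPM in 7-week blood. The 7 tissue macrophage markers summed to 57.1 to 146 RPM in marrow Ly6C+ and 732 to 1112 RPM in marrow Ly6C- cells. The part of these markers in the results was not tested.

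Rpl3l was the member with the largest rise in Ly6C- cells. It is the paralogue of Rpl3, an invariant large-subunit protein at the peptidyl transferase centre, and is best known from heart and skeletal muscle. None of its 50-base stretches was shared with another gene, unlike Rpl3 with 85.6%, and the transcripts are 1375 and 1351 bases long. In 7-week marrow Rpl3l was at 0, 0 and 0.725 RPM in Ly6C+ and at 7.96, 5.23, 15.2 and 10.01 RPM in Ly6C- cells. MDP and cMoP libraries had at most 0.571 RPM. In 7-week blood it was 2.53, 0.768, 3.52 and 0 RPM in Ly6C+, 14.2, 8.09 and 14.6 RPM in Ly6Cint, and 12.7, 14.1 and 8.01 RPM in Ly6C- cells. Thus Ly6Cint and Ly6C- libraries overlapped each other and lay above all Ly6C+ libraries. The differences were 3.06 ± 0.42 for marrow Ly6C- against Ly6C+ (limma adjusted p = 7.8e-07), 2.49 ± 0.42 for blood Ly6Cint against Ly6C+ (8.7e-05) and 2.42 ± 0.42 for blood Ly6C- against Ly6C+ (7.8e-05). These sizes depend on the added 1 RPM, as the low groups hold 0 to a few reads, and Rpl3l passed the filter of the 7-week fit only through the groups where it is high.

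Ly6C+ cells were also lowest in the other tables, while the order of Ly6Cint and Ly6C- cells varied. In 16-week wt blood Rpl3l was 5.73 and 7.60 RPM in Ly6C+, 39.1 and 47.7 RPM in Ly6Cint, and 37.0 and 41.6 RPM in Ly6C- cells (Ly6C- against Ly6C+ 2.40 ± 0.47, limma adjusted p = 0.0032). In host spleen it was 0.876 and 3.07, 16.2 and 14.5, and 46.4 and 39.9 RPM (3.99 ± 0.90, limma adjusted p = 0.012). In host blood it was 1.31 and 7.01, 17.96 and 52.6, and 29.8 and 38.6 RPM, where the difference of 3.02 ± 0.90 missed the threshold (limma adjusted p = 0.068). No wt or host Ly6C+ library reached the lowest Ly6Cint or Ly6C- library of its own tissue. The host spleen call held in 1 of 4 fits that left out 1 library.

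Rpl3 did not take the same course. It was 48.1, 58.4, 51.1 and 46.8 RPM in 7-week blood Ly6C+ and 41.1, 64.9 and 50.7 RPM in Ly6C- cells, and the groups overlapped. In 16-week Ly6C- cells Rpl3l at 37.0 and 41.6 RPM stood above Rpl3 at 16.3 and 20.54 RPM. Since the transcripts differ little in length, this order also holds per length, but most of the Rpl3 sequence is shared with other genes. Rpl3l lies between Ndufb10 and Msrb1 on chromosome 17. Msrb1 fell by 0.53 in blood Ly6Cint and by 0.71 in blood Ly6C- against Ly6C+ cells at 7 weeks, and its differences were -0.03 in marrow and -0.07 in 16-week wt blood, neither called.

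**Figure D3:**
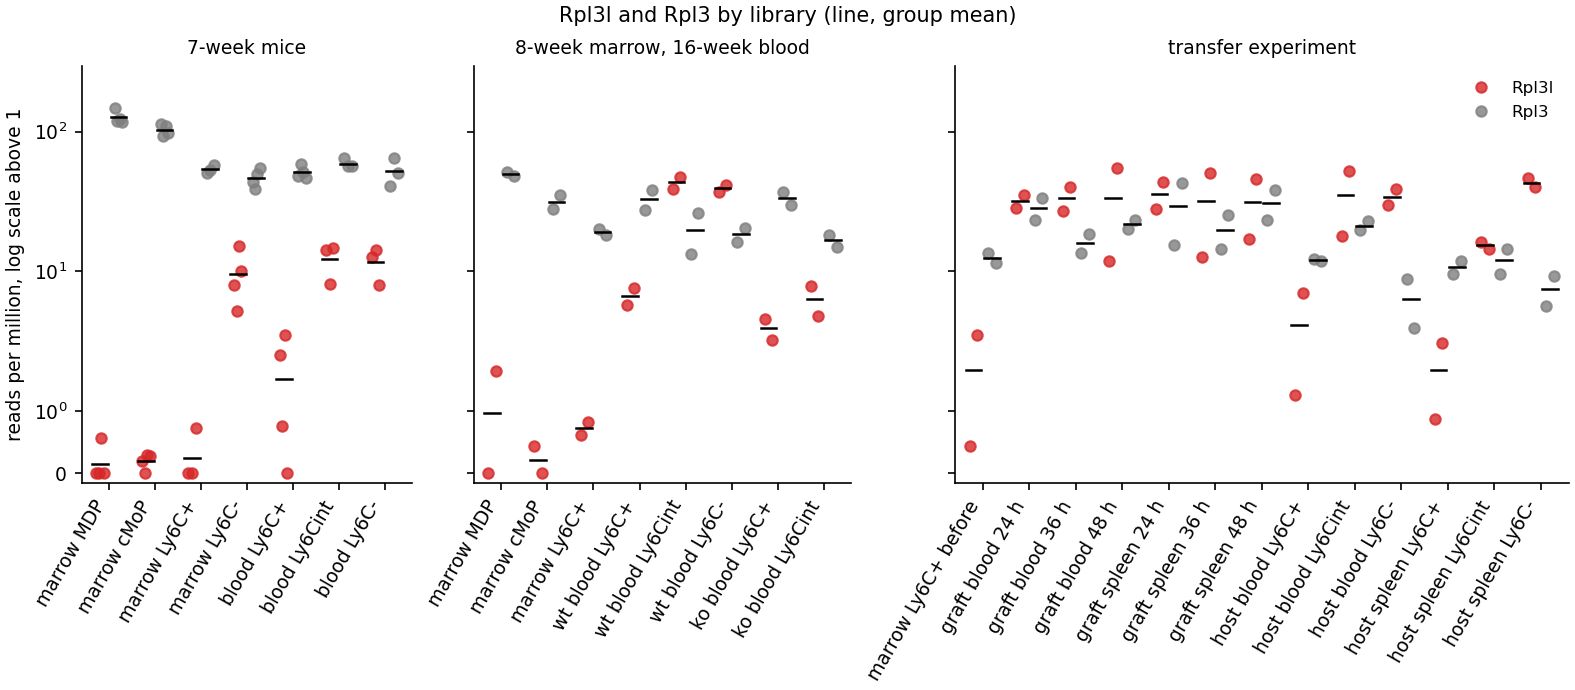
Rpl3l in RPM (log scale above 1), 1 point per library with the group mean as a line, for the 3 tables. MDP, cMoP and Ly6C+ libraries hold at most 7.60 RPM, and wt Ly6Cint, Ly6C- and transferred cells lie between 5.23 and 55.2 RPM.

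The other paralogue pairs were read along the marrow path at 7 weeks. Rpl22 was 1201 to 1436 RPM in cMoP, 651 to 736 RPM in Ly6C+ and 398 to 481 RPM in Ly6C- cells, and fell in both steps (-0.93 ± 0.19 and -0.64 ± 0.19). Its paralogue Rpl22l1 was 46.7 to 100.01 RPM, 42.8 to 63.3 RPM and 23.4 to 37.5 RPM, differences that were not called (-0.57 ± 0.42 and -0.70 ± 0.42). Rps27l, a p53-induced copy of Rps27, was 165 to 186 RPM in cMoP, 110 to 120 RPM in marrow Ly6C+ and 62.1 to 64.5 RPM in marrow Ly6C- cells, while Rps27 was 55.4 to 89.3 RPM, 48.6 to 57.2 RPM and 31.1 to 87.9 RPM. Rps27l fell in marrow Ly6C- cells (-0.86 ± 0.25, limma adjusted p = 0.0072). Rpl7l1, linked to ribosome assembly, was 144 to 167 RPM in cMoP, 67.2 to 108 RPM in marrow Ly6C+ and 47.8 to 59.7 RPM in marrow Ly6C- cells, and fell in both steps (-0.90 and -0.64). Rpl7 was 163 to 228 RPM, 105 to 136 RPM and 139 to 167 RPM in the same order. Rps19, the member most often mutated in Diamond-Blackfan anaemia, was 327 to 400 RPM in cMoP, 259 to 285 RPM in marrow Ly6C+ and 256 to 382 RPM in marrow Ly6C- cells at 7 weeks. The cMoP libraries lay above the Ly6C+ libraries, a difference that was not called (-0.40 ± 0.24, limma adjusted p = 0.194). At 8 weeks it fell from 154 and 175 RPM in cMoP to 85.3 and 79.9 RPM in Ly6C+ cells (-0.98 ± 0.27, limma adjusted p = 0.011).

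The ko libraries were first checked for the gene in the series title. Cebpb was 57.2 and 115 RPM in ko Ly6C+ and 67.1 and 186 RPM in ko Ly6Cint cells, against 693 and 804 RPM in wt Ly6C+ and 1734 and 1242 RPM in wt Ly6Cint cells. The differences were -3.19 ± 0.38 and -3.70 ± 0.38, so Cebpb was lower in the libraries labelled ko. The sum of all members was 4.88% and 5.04% in ko Ly6C+ cells beside 5.05% and 5.16% in wt, and 4.45% and 4.37% in ko Ly6Cint cells beside 4.69% and 4.84% in wt. The ko means were lower by 0.15 and 0.35 percentage points, with no test made. In Ly6C+ cells the groups overlapped in percent of the library total (3.78% to 3.91% in ko, 3.81% to 3.94% in wt) and without the 5 most abundant members (2.91% to 3.17% and 3.10% to 3.16%). In Ly6C+ cells the median member did not shift (0.00, all genes 0.02) and Rps2 alone fell, beside 0.799% of genes that rose and 0.465% that fell. In Ly6Cint cells the members' median was -0.15 beside 0.07, and that of the 14 members with little shared sequence was 0.05. There 4 members fell, Rps2, Rpl3l, Rps4l and Rps14, beside 3.63% of all genes that rose and 2.7% that fell. Without ko Ly6Cint replicate 2 none was called, and without wt Ly6Cint replicate 1 the count was 10. The 2 wt Ly6Cint libraries differed widely in some members, and replicate 1 was then close to the ko libraries. Rpl10 was 21.1 RPM in wt replicate 1 and 97.6 RPM in replicate 2, beside 17.8 and 24.7 RPM in ko. Rps27a was 9.22 and 63.2 RPM in wt, beside 10.2 and 7.25 RPM in ko. The 2 wt Ly6C- libraries were split alike, with Rps27a at 6.33 and 48.8 RPM. The median and the counts of the ko against wt comparison in Ly6Cint cells therefore rest on a wt group that is split for these members. The wt Ly6C+ libraries were closer to each other, with Rpl10 at 95.4 and 118 RPM and Rps27a at 61.9 and 84.9 RPM.

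Rps2, a small-subunit protein at the mRNA entry channel, lay at 98.9 and 112 RPM in wt Ly6C+ and at 26.8 and 16.2 RPM in ko Ly6C+ cells (-2.28 ± 0.47, limma adjusted p = 0.028). In Ly6Cint cells it lay at 175 and 115 RPM in wt and 34.0 and 12.6 RPM in ko (-2.71 ± 0.47, limma adjusted p = 0.0026). Each ko library was below each wt library, including wt Ly6C- cells at 136 and 99.1 RPM. In C57BL/6 marrow of the same table Rps2 lay between 280 and 1666 RPM, and 79.0% of its 50-base stretches are shared with other genes. The call in Ly6C+ cells was lost in each of the 4 fits that left out 1 library (adjusted p 0.064 to 0.294) and without the filter on low genes, while that in Ly6Cint cells held in 3 of 4.

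Rpl3l, high in wt Ly6Cint cells at 39.1 and 47.7 RPM, was 7.85 and 4.83 RPM in ko Ly6Cint cells (-2.62 ± 0.47, limma adjusted p = 0.0034). In Ly6C+ cells it was 5.73 and 7.60 RPM in wt and 4.57 and 3.25 RPM in ko (-0.65 ± 0.47, limma adjusted p = 0.796). Rps4l, an autosomal copy of Rps4x, was 7.02 and 2.65 RPM in wt and 0.476 and 0.537 RPM in ko Ly6Cint cells (-1.84 ± 0.47, limma adjusted p = 0.028), values of a few reads. Rps14, a small-subunit platform protein, was 1307 and 1967 RPM in wt and 903 and 754 RPM in ko Ly6Cint cells (-0.96 ± 0.21, limma adjusted p = 0.012). No ko library of these 3 genes overlapped wt in Ly6Cint cells. Leaving out 1 library kept the call of Rpl3l in 3 of 4 fits, of Rps14 in 2 and of Rps4l in 1, and none of the 4 was called when the 2 groups were fitted alone.

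The genotype effect did not differ detectably between the 2 populations. In the interaction test limma called 0 of 85 members, 1 had an unadjusted p under 0.05 and edgeR called 0, beside 0.00878% of all genes called with a higher and 0.0% with a lower ko minus wt difference in Ly6Cint than in Ly6C+ cells. For Rpl3l the interaction was -1.97 ± 0.66 (limma adjusted p = 0.56). The 6 Ly6C- monocyte markers summed to 1596 to 1920 RPM in ko and 5279.9 to 6236 RPM in wt Ly6Cint cells, so fewer cells far along this path and a lower level per cell cannot be told apart for Rpl3l. Rps2 and Rpl3l lie close together on chromosome 17, with Snhg9, Snora78, Snora64 and Ndufb10 between them. Of the 19 other tested genes in this neighbourhood 0 were called in Ly6C+ and 1 in Ly6Cint cells, Msrb1, which was 2272 and 1989 RPM in wt and 754 and 874 RPM in ko (-1.39, limma adjusted p = 0.00075).

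Among the related lists, Myc was 2.43 and 1.98 RPM in wt and 9.74 and 10.4 RPM in ko Ly6C+ cells, and 2.78 and 3.40 RPM in wt and 17.7 and 16.4 RPM in ko Ly6Cint cells. It rose in both (1.79 ± 0.35 and 2.15 ± 0.35). Of 57 assembly genes, Gar1 (1.2 ± 0.28), Nop58 (1.39 ± 0.32) and Nop16 rose in ko Ly6Cint cells and Nop56 fell (-1.97 ± 0.47), and in Ly6C+ cells none was called. Of all genes 3.63% rose and 2.7% fell in Ly6Cint cells, and 0.799% and 0.465% in Ly6C+ cells. None of the 21 other TOP mRNAs was called in either population. The 7 tissue macrophage markers summed to 461 to 857 RPM in ko and 194 to 300.3 RPM in wt Ly6Cint cells, with Vcam1 and Timd4 at 0 in both, and their part in these results was not tested. The mice compared share a mixed background, and whether ko and wt mice were littermates is not given in the sources used here.

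**Figure D4:**
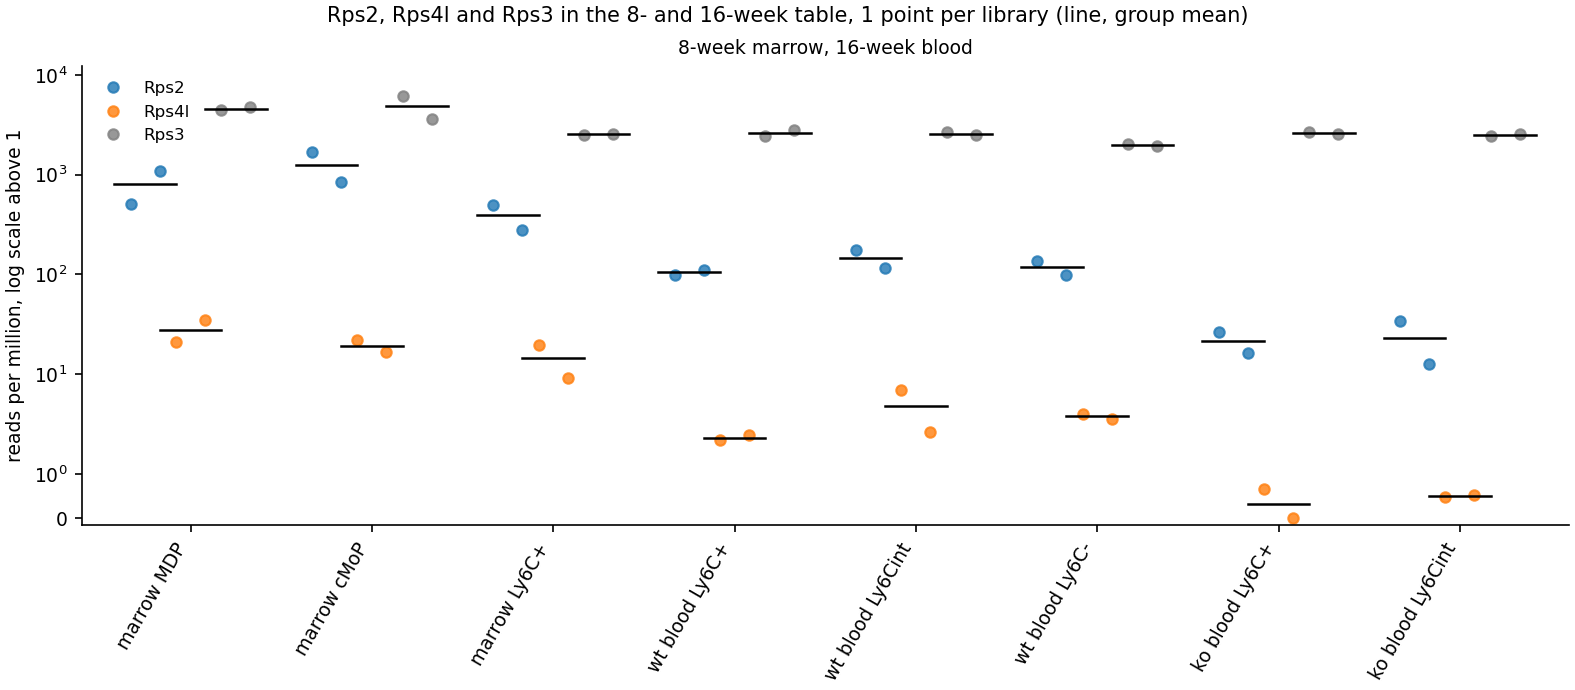
Rps2, Rps4l and Rps3 in RPM (log scale above 1) in the 8- and 16-week table, 1 point per library with the group mean as a line. Rps2 is 12.6 to 34.0 RPM in ko and 98.9 to 175 RPM in wt blood libraries, and Rps3 is 1921 to 2775 RPM in all of them.

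Rpl3l was higher in transferred cells at 24 h than in marrow Ly6C+ monocytes before transfer. It was 0.438 and 3.51 RPM before transfer and 28.5 and 35.1 RPM in graft blood at 24 h (3.68 ± 0.90, limma adjusted p = 0.0082). Graft spleen at 24 h had 28.0 and 43.8 RPM (3.83 ± 0.90, limma adjusted p = 0.010). At 36 h the libraries had 27.2 and 39.9 RPM in blood and 12.7 and 50.8 RPM in spleen, and at 48 h 11.8 and 55.2 RPM and 17.1 and 45.6 RPM. All 12 graft libraries stood above both libraries before transfer. The calls at 24 h held in 3 of 4 (blood) and 2 of 4 (spleen) fits that left out 1 library, and the comparisons share the 2 libraries before transfer. Time, organ and preparation of the cells changed together in these comparisons and cannot be told apart.

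Other members changed less than Rpl3l. In graft blood at 24 h 5 members rose and 2 fell against cells before transfer, beside 2.98% and 10.3% of all genes, with a median of 0.05 beside -0.53. The 14 members with little shared sequence had a median of -0.09. Genes above 0 numbered 8278 and 8109 in graft blood and 10970 and 9354 in graft spleen at 24 h, against 11719 and 11574 before transfer. The part of fewer detected genes in the all-gene medians and shares was not tested. Rpl7 lay at 28.0 RPM in both libraries before transfer and at 93.8 and 91.1 RPM in graft blood (1.69 ± 0.46), and Rpl18 at 147 and 151 against 452 and 458 RPM (1.60 ± 0.32). In graft spleen 9 members rose and none fell, beside 2.89% and 2.91%, with a median of 0.18 beside -0.21. The 14 members with little shared sequence had a median of 0.08 there. Rps4x, the X-linked small-subunit gene, lay at 21.03 and 17.5 RPM before transfer and at 104 and 99.0 RPM in graft spleen (2.34 ± 0.48, limma adjusted p = 0.0033), and Rps16 rose by 1.64 ± 0.40. The spleen count was 14 without library B and 1 without library C, and the blood count was 1 and 2 without libraries A and B before transfer and 4 without graft library AC. The 5 B-cell markers found summed to 118 to 356 RPM in graft spleen at 24 h and 36.8 to 39.0 RPM before transfer, and the 5 erythroid markers to 2003 to 4384 RPM in graft blood and 13.6 to 24.98 RPM before transfer. The dividing-cell markers summed to 954 to 1086 RPM before transfer and 49.5 to 111 RPM in graft blood, and Malat1 and Neat1 to 778 to 1211 and 3236 to 3343 RPM. In graft spleen the tissue macrophage markers summed to 468 to 1024 RPM, against 78.0 to 149 RPM before transfer, and the T and NK cell markers to 85.01 to 120 against 2.19 to 6.57 RPM. Their part in these results was not tested.

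From 24 to 48 h the summed level fell in graft blood from 4.19% and 4.08% to 3.24% and 3.32%, passing 3.48% and 3.502% at 36 h. The 3 times did not overlap. Between 24 and 48 h 5 members fell and none rose, beside 3.67% and 4.42% of all genes, with a median of -0.33 beside 0.00. Rpl13 lay at 139 and 176 RPM at 24 h and at 69.2 and 87.6 RPM at 48 h (-0.99 ± 0.25, limma adjusted p = 0.017), and Rps9 at 4129 and 3616 against 2028 and 2638 RPM (-0.74 ± 0.21, limma adjusted p = 0.030). Rpl14, Rps18 and Rpl8 also fell. The count was 2, with 1 of them higher, without the 24 h library AC, and 3 without the 24 h library B. In graft spleen the sum was 3.81% and 5.12% at 24 h and 4.08% and 4.54% at 48 h, and limma called 0 of 84 members, with 4 at an unadjusted p under 0.05 and 0 called under TMM scaling. All genes rose there in 0.314% and fell in 2.1% of tests. Genes above 0 numbered 10970 and 9354 in graft spleen at 24 h and 8396 and 8614 at 48 h.

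The ratio of large- to small-subunit reads also differed between groups. Its log2 value was 0.64 to 0.74 in MDP, 0.82 to 0.86 in cMoP and 0.65 to 0.71 in marrow Ly6C+ cells, and 0.17 to 0.40 in marrow Ly6C- cells at 7 weeks. Marrow Ly6C- libraries were thus below all libraries of the other marrow groups. As a difference of the median large- and small-subunit member they were not: it was -0.50 to -0.43 in marrow Ly6C- and -0.44 to -0.43 in Ly6C+ cells. In blood the log2 ratio of large- to small-subunit reads was 0.35 to 0.77 in Ly6C+, 0.23 to 0.28 in Ly6Cint and 0.24 to 0.51 in Ly6C- cells. No test was made on this ratio.

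Levels of the members differed widely between genes and tables. Per kilobase of transcript, they ranged from 3.47 to 6076 RPM in the 7-week table, from 3.85 to 7201 in the second and from 0.444 to 3921 in the transfer table, although nearly all of the proteins enter a ribosome in equal numbers. The level per kilobase was lower for members with more shared sequence, with Spearman's rho across 83 genes of -0.16, -0.28 and -0.37, given as a description of genes that share libraries. Medians were 280, 160 and 161 RPM per kilobase in the 14 members with little shared sequence and 224, 104 and 66.6 in the other 69. Marrow Ly6C+ monocytes, present in all 3 tables, had a median 3.18-fold difference between the highest and lowest table over 85 members. Over 4-fold apart were 35 members, 29 of them highest in the 7-week table. Rps3a1, at 323, 296 and 296 RPM, and Rpl8, at 1953, 1799 and 1732 RPM, agreed closely between tables, while Rps27a was 201, 0.833 and 6.57 RPM and Rpl39 282, 16.9 and 7.45 RPM. RPM of the transfer table are relative to listed reads only, and those of the other tables to all reads of the library. Age, preparation and processing differ between the tables and cannot be told apart here.

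**Figure D5:**
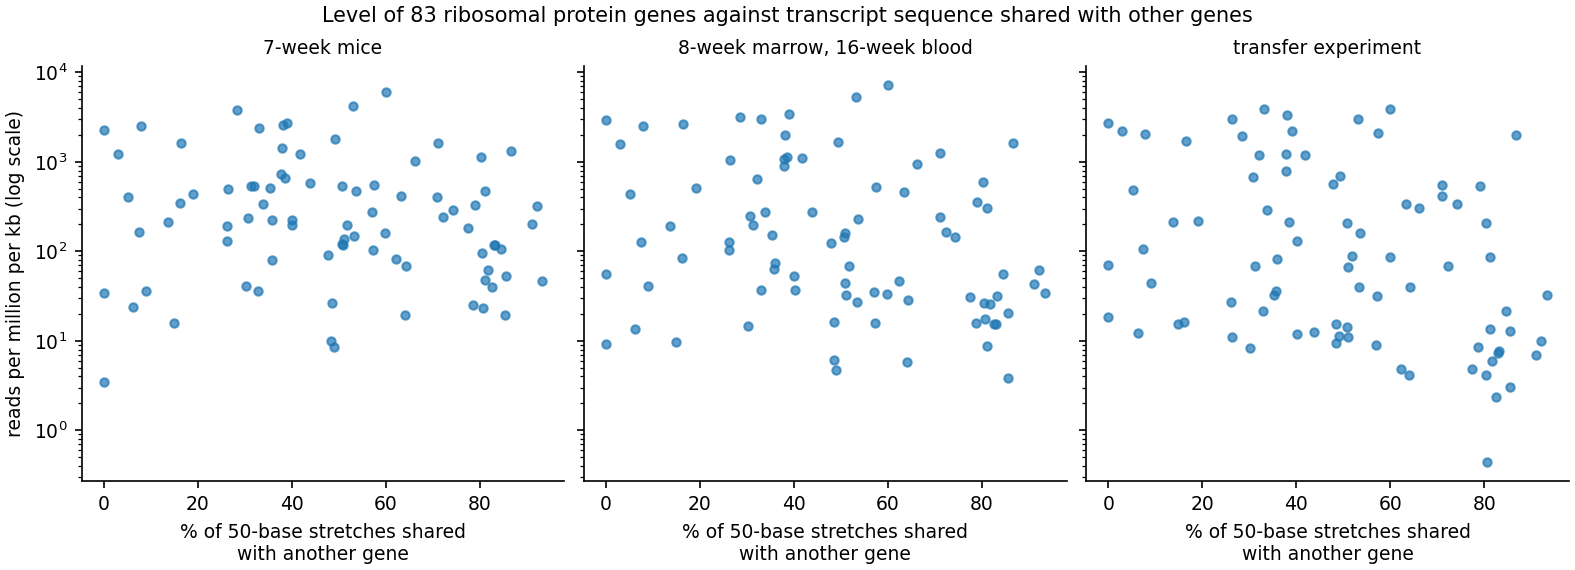
Mean level of 83 ribosomal protein genes in RPM per kilobase of transcript (log scale) against the percent of their 50-base stretches found in another gene's transcript, 1 point per gene, for the 3 tables. Most of the lowest points lie above 40% shared sequence, and Rpl3l, at 0%, is the lowest point of the 7-week table.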

How the data were processed

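RNA-seq values of 67 mouse libraries were analysed from 3 deposited tables of 24421 genes. Per the submitters' processing notes, HISAT 0.1.5, SAMtools, bcl2fastq and HOMER were used with build mm9. The deposited values are a normalized signal made by the authors: in the first and second table a read is worth a fixed step per library, and 100.0% of values came out whole (within 0.1 read), on which edgeR called 2 to 4533 genes a comparison. RPM, reads scaled to 1000000, assume there a library total of 10000000, the usual HOMER setting. The deposited transfer values are a rounded score made by the authors, scaled to a common total over listed genes, so RPM there are relative to that total and depth is approximate. A table was fitted as a whole with limma 3.58.1 (R 4.3.3) on log2(RPM + 1), 1 mean per group, for genes with 2 RPM in 3 (7-week) or 2 libraries. The fit was tested on simulated data. edgeR 4.0.16 on recovered reads, TMM scaling, other filters, the compared groups alone, a replicate block and leaving out each library were alternatives. Members and lists were chosen with earlier results of these data known. Named genes were up to 8 called members a direction and comparison with the largest change, the paralogue pairs, Rps6, Rpsa, Rplp0 and Rps19, up to 3 genes of smallest p per list, and members with the lowest and highest levels. Others named were chosen after their values were seen, and some genes that these rules chose are not reported here. Tests planned for the summed level and the subunit ratio were not made, since the members were chosen with results known. Sequence came from the RefSeq promoter table, and the planned comparison of paralogue proteins was not made.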

Additional observations from a re-analysis of the deposited data

Results flagged for a closer look

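Among 68 groups of 4 libraries, each a named gene in a 7-week group, 3 had a library whose gap to the next, divided by the group's range, passed Dixon's 95% critical value for 4 samples. Chance gives about 1 in 20 groups, so this number is no more than chance gives. Rpl10 reached 307 RPM in the highest MDP library. Rpl3l was 0.571 RPM in the highest MDP library and 0 in the other 3, which is about a read. Rps27l reached 186 RPM in the highest cMoP library, above 165 to 167 RPM in the others.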

How the results depend on the processing

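Many counts of called members changed with the libraries that entered the fit. The shares of all genes called in these other fits are not given beside them. The counts therefore show only how far the calls depend on the settings. With the compared groups fitted alone, the calls were 12 for cMoP against MDP, 1 for blood against marrow Ly6C+, 6 for Ly6Cint against Ly6C+, 0 for Ly6C- against Ly6Cint and 6 for Ly6C- against Ly6C+ blood cells at 7 weeks. They were then 0 for ko against wt in both populations, 9 for 8-week marrow Ly6C+ against cMoP, 4 for 16-week wt Ly6C- against Ly6C+, 2 for graft spleen against cells before transfer, and 0 for graft blood over time and for both host comparisons. TMM scaling gave 26 for 7-week marrow Ly6C+ against cMoP and 23 for 7-week Ly6C- against Ly6Cint, and scaling to the other listed genes gave 24 for the latter. edgeR gave 29 for the former, 27 for blood against marrow Ly6C+ and 7 for ko against wt Ly6Cint. TMM scaling moved the all-gene median by over 0.1 (log2) in 6 comparisons, by -0.14 to 0.25, and the median member of marrow Ly6C- against Ly6C+ (-0.02 to 0.27) and of 8-week cMoP against MDP (-0.14 to 0.04) changed sign with it. Without a filter, ko against wt Ly6C+ had 0 calls and graft blood over time 3.

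Leaving out 1 library at a time gave ranges of called members. At 7 weeks they were 0 to 1 (cMoP against MDP), 36 to 48 (marrow Ly6C+ against cMoP), 8 to 23 (blood against marrow Ly6C+), 15 to 34 (Ly6Cint against Ly6C+), 3 to 27 (Ly6C- against Ly6Cint), 15 to 27 (Ly6C- against Ly6C+ blood) and 14 to 28 (the same in marrow). In the second table they were 0 in each fit for ko against wt Ly6C+ and for the interaction, 0 to 10 for ko against wt Ly6Cint, 0 to 1 for cMoP against MDP, 23 to 46 for marrow Ly6C+ against cMoP and 3 to 12 for wt Ly6C- against Ly6C+. After transfer they were 1 to 7 (graft blood) and 1 to 14 (graft spleen) against cells before transfer, 2 to 4 and 0 to 1 from 24 to 48 h in blood and spleen, and 1 to 4 and 0 to 1 for host blood and spleen. The lowest count came without cMoP replicate 1 in 8-week marrow, and without ko Ly6Cint replicate 2 for ko against wt. The lone sample of an arm was then assumed to vary like the other groups.

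The difference of the large-to-small ratio changed sign in several comparisons and no direction is read from them. Among these were 8-week cMoP against MDP and graft spleen at 48 against 24 h, where the difference of medians had the other sign. In the others, the difference of medians was 0.11 for blood against marrow Ly6C+ and -0.16 for Ly6C- against Ly6Cint blood. It was -0.40 for graft spleen at 24 h against cells before transfer and -0.26 for graft blood at 48 against 24 h. Without the 5 most abundant members the difference of the ratio was -0.034 for the last. Replicate labels shared between groups did not pair the libraries consistently. Deviations correlated at -0.30 to 0.38, -0.32 to 0.41 and -0.03 to 0.08 in the 3 tables, over 0.1 in 8 of 67, 8 of 56 and 0 of 105 pairs. Of the libraries, 10 of 25, 12 of 16 and 17 of 26 correlated best with their own label. In the second table, wt Ly6Cint and wt Ly6C- libraries were split alike by label for some members. What the label stands for there is not given. With a replicate block 52 members were called for 7-week and 46 for 8-week marrow Ly6C+ against cMoP, 17 for 7-week Ly6C- against Ly6C+ blood and 4 for ko against wt Ly6Cint. No block could be fitted for grafts against cells before transfer. Of the 144 named gene and comparison pairs none changed sign under any of these settings, and the cause of lost calls was not tested.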
